A study of Homo sapiens with 6 samples.

Results

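The genes described here carry the TGF-beta signal from the stored ligand to the nucleus or restrain it. These genes are LTBP1, TGFB1, TGFBR1, TGFBR2, SMAD2, SMAD3, SMAD4, SMAD6, SMAD7 and SKIL. They were chosen by symbol with the counts of these same libraries, mimic against mock, already in view, and they are 10 of the 26613 genes counted in at least 1 library. The data are gene counts of 6 RNA-seq libraries made from 293T, a cell line that derives from HEK293 human embryonic kidney cells and takes up plasmids and oligonucleotides readily. The miR-941 mimic group (3 libraries) had received 10 nM of a duplex of the microRNA miR-941, and the mock group (3 libraries) a scrambled oligonucleotide, whose concentration is not recorded in the labels. Plating preceded the transfection, with Lipofectamine 2000, by 24 h in both groups, and by the labels each library is a transfection of its own. The groups share the parent line, so the results describe 1 immortalised line, and cells without any transfection are not among the samples.

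TGF-beta is made as a precursor and is secreted in a latent form, in which its own propeptide is tied by disulfide bonds to a latent TGF-beta binding protein such as LTBP1 and held in the extracellular matrix until it is freed. The active ligand brings together the type II receptor TGFBR2 and the type I receptor TGFBR1, both serine/threonine kinases, and TGFBR1 then phosphorylates SMAD2 and SMAD3. These join SMAD4 and enter the nucleus to regulate genes, among them SMAD7 and SKIL, whose products restrain the pathway.

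A mimic acts through the seed of the microRNA, bases 2 to 8, which pairs with sites in mRNA 3′ UTRs. The labels do not give the sequence of the duplex, so the annotated mature strand of miR-941 was used, which RefSeq places at 5 loci on chromosome 20 (GRCh38.p14). It is shown with the seed in capitals, followed by a site complementary to that seed (GCCGGGT, in capitals) found on searching the 3′ UTRs of the 10 genes, taking the longest UTR per gene, in GENCODE release 29 on GRCh38.
miR-941: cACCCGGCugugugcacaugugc
SMAD2 site: attgtgggGCCGGGTacagtggc
SMAD2 was the only one of the 10 with such a site, and it had 2, of which 1 is described. The site shown lies at chr18:47813698-47813704 on the minus strand, in exon 11 of 11, at base 28123 of the 32870 bases of its 3′ UTR. It is followed by an A (an 8mer site). The 3′ UTRs of the other 9 genes, 729 bases in TGFB1 to 6578 bases in SMAD4, held no match. The share of all 13015 tested genes with a 3′ UTR that carried the site was 4.87%, and their median 3′ UTR was 1402 bases long. SMAD2 was not among the genes of the list that changed, and the 5 that did change were without a site.

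Levels are given as CPM, the count of a gene relative to the total of its library, scaled with TMM factors that correct for library composition. Total counts lay between 6079420 and 7651046 per library, so that 3 counts equal 0.392 to 0.493 CPM. A gene is called changed where edgeR's quasi-likelihood test, adjusted by Benjamini-Hochberg over all 15607 tested genes, gave a value under 0.05. Of all tested genes 6.80% rose and 6.19% fell, together 13.0%. All 10 genes passed the filter on low counts, with 484 (SMAD6) to 5161 (SMAD3) counts summed over the 6 libraries. Of the 10, 3 rose (LTBP1, TGFB1 and TGFBR1), 2 fell (TGFBR2 and SMAD7) and 5 were not called. Without overlap between the groups, 14.4% of all tested genes were higher and 13.9% lower in the mimic libraries, and of the 10 genes 3 were higher and 2 lower, the same 5 as called. The genes were chosen with these values known, so the counts are a description and nothing is read from their difference from the background. The median log2 fold change of the 10 was −0.018, beside 0.0018 over all tested genes. Of 6 genes listed as typical of 293T cells 5 were present (KRT8, KRT18, VIM, NEFM and PAX2), and NEFL was at 0 in all libraries. The summed level of leukocyte, endothelial or fibroblast markers was at most 3.48 CPM per list in any library, with PTPRC, PECAM1 and DCN at 0 in all. CPM is a share of the RNA of a culture, so less RNA per cell and fewer expressing cells cannot be told apart.

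The genes of the ligand and of the protein that stores it both had higher RNA levels in the mimic group. TGFB1, the gene of the ligand, stood at 111, 105 and 106 CPM in the mimic libraries, against 83.6, 78.7 and 79.8 CPM in the mock libraries. Every mimic library was above every mock library, and the log2 fold change was 0.41 ± 0.06 (SE), or 1.33-fold. LTBP1 stood at 66.6, 71.1 and 70.5 CPM in the mimic libraries, against 59.4, 52.3 and 51.1 CPM in the mock libraries. These groups were also apart, with a log2 fold change of 0.35 ± 0.07. The ratio of TGFB1 to LTBP1 within a library overlapped between the groups, with a mean log2 ratio of CPM of 0.63 ± 0.10 in the mimic group and 0.57 ± 0.08 in the mock group (SD, n = 3 each). TGFB1 shares 215 bases of exon, on the opposite strand, with HNRNPUL1, which had 780.3% of its counts and a log2 fold change of 0.15 ± 0.05. No source used here says whether strand was used in counting, so reads from the shared bases cannot be told apart, and their part in the result was not tested.

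The receptor genes moved in opposite directions. TGFBR1 was counted at 74.2, 76.3 and 70.8 CPM in the mimic libraries and at 60.9, 66.7 and 62.3 CPM in the mock libraries. TGFBR2 was counted at 36.5, 38.7 and 37.1 CPM in the mimic libraries and at 46.1, 43.2 and 43.4 CPM in the mock libraries. In neither gene did the groups overlap, and the log2 fold changes were 0.22 ± 0.07 for TGFBR1 and −0.24 ± 0.08 for TGFBR2. As a result the log2 ratio of TGFBR1 to TGFBR2 CPM averaged 0.98 ± 0.05 in the mimic group and 0.52 ± 0.11 in the mock group (SD, n = 3 each), with every mimic library above every mock library. Per kb of exon, TGFBR1 was above TGFBR2 in each mimic library, whereas in the mock group it was below TGFBR2 in replicates 1 and 3 and above it in replicate 2. Both calls depended on single libraries. TGFBR1 was no longer called without mimic replicate 1 (log2 fold change 0.22), mimic replicate 2 (0.20), mock replicate 1 (0.19) or mock replicate 3 (0.21), nor by DESeq2 (0.22), and TGFBR2 was no longer called by DESeq2 (−0.24), without mimic replicate 1 (−0.22) or on leaving out mock replicate 1 (−0.21) or 3 (−0.26).

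**Figure D1:**
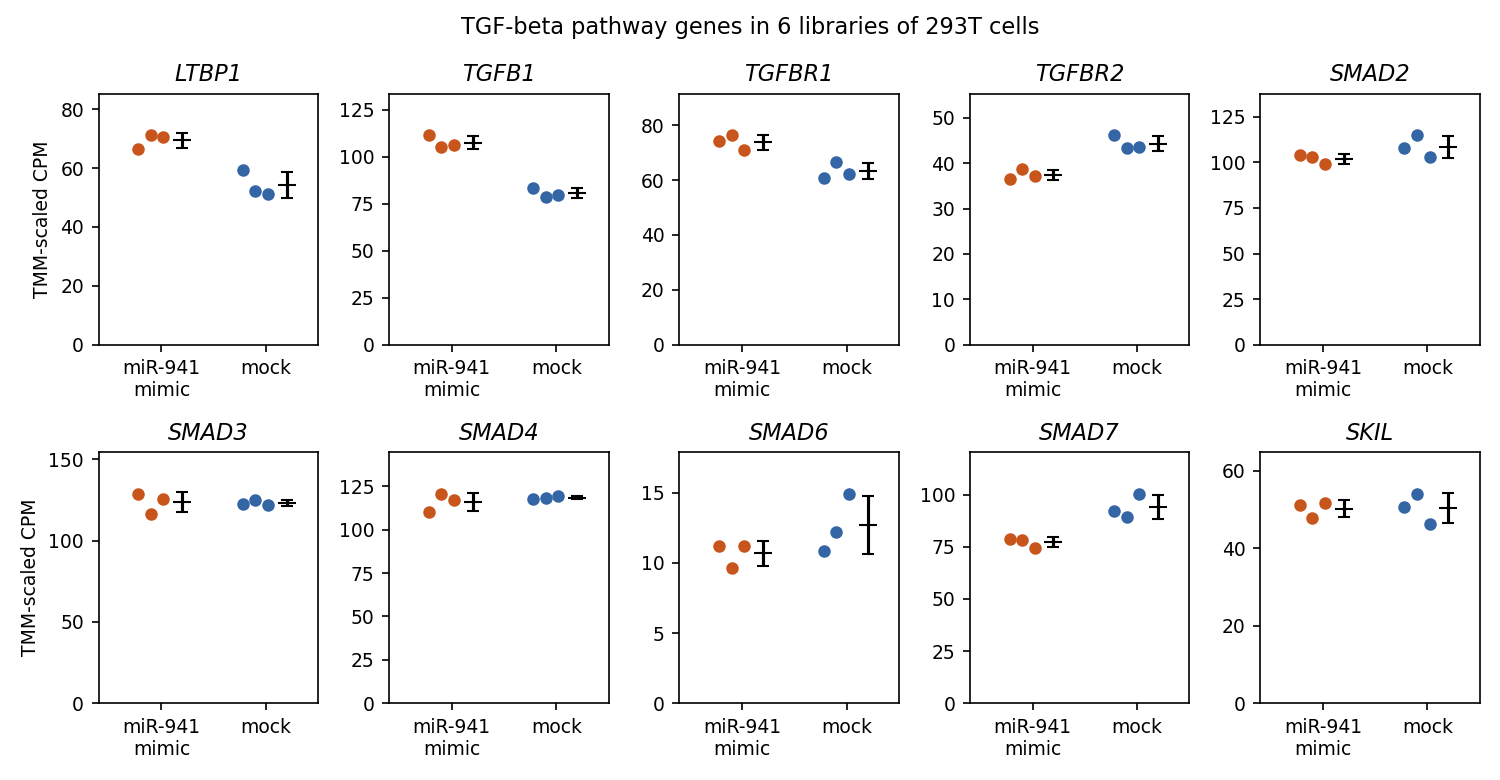
TMM-scaled CPM of the 10 genes in each library (points: 3 miR-941 mimic libraries at the left and 3 mock libraries at the right of each panel; bars: mean ± SD; axes start at 0). The groups are apart for LTBP1, TGFB1, TGFBR1, TGFBR2 and SMAD7 and overlap for SMAD2, SMAD3, SMAD4, SMAD6 and SKIL.

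The SMADs that transmit the signal were at like levels in both groups. SMAD3, which binds DNA directly, averaged 124 ± 6.37 CPM in the mimic group and 123 ± 1.75 CPM in the mock group, and its log2 fold change was 0.0058 ± 0.054. SMAD4, the partner shared with the BMP branch, averaged 116 ± 5.15 CPM in the mimic group and 118 ± 0.860 CPM in the mock group. SMAD2, whose longest annotated 3′ UTR holds the seed site shown above, stood at 104, 103 and 99.0 CPM in the mimic libraries. In the mock libraries it stood at 108, 115 and 103 CPM. Mimic replicate 1 lay just above mock replicate 3, so the groups overlapped, and the log2 fold change was −0.09 ± 0.06, which was not called. The log2 ratio of SMAD3 to SMAD2 averaged 0.28 ± 0.09 in the mimic group and 0.19 ± 0.06 in the mock group (SD, n = 3 each), and it overlapped between the groups.

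Of the genes that restrain the pathway, SMAD7 fell, and SMAD6 and SKIL were not called. SMAD7, which blocks the activated type I receptor and brings ubiquitin ligases to it, stood at 78.9, 78.4 and 74.3 CPM in the mimic libraries, against 92.2, 89.1 and 100.3 CPM in the mock libraries. The groups were apart, with a log2 fold change of −0.28 ± 0.06, and the call held in all 11 alternative settings. SMAD6, the inhibitory SMAD that acts mainly on BMP signals, stood at 11.2, 9.64 and 11.2 CPM in the mimic libraries, against 10.9, 12.2 and 14.9 CPM in the mock libraries. Its log2 fold change of −0.23 ± 0.14 rested on 69 to 91 counts per library, it was −0.11 without mock replicate 3, and the groups overlapped. SKIL, a co-repressor that binds SMAD complexes and is degraded on TGF-beta signalling, averaged 50.2 ± 2.13 CPM in the mimic group and 50.4 ± 3.85 CPM in the mock group. The log2 ratio of SMAD3 to SMAD7 within a library averaged 0.68 ± 0.10 in the mimic group against 0.39 ± 0.11 in the mock group (SD, n = 3 each), without overlap.

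**Figure D2:**
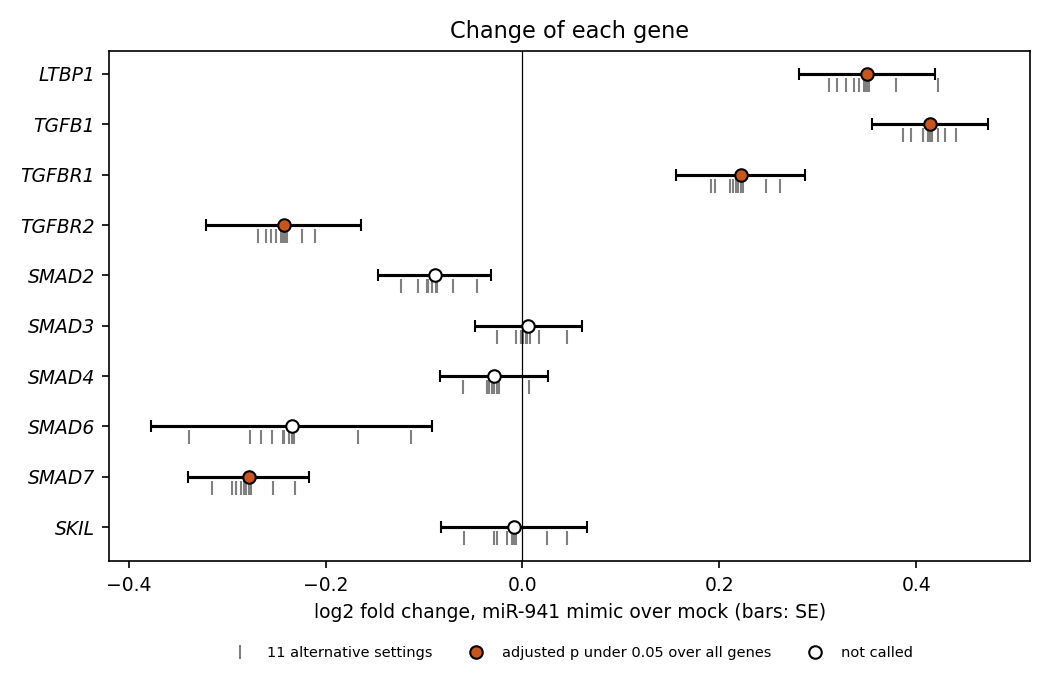
Log2 fold change of each gene, miR-941 mimic over mock (points with SE bars, filled where called over all tested genes), with the value under each of 11 alternative settings as grey ticks below it. All settings keep LTBP1, TGFB1 and TGFBR1 above 0 and TGFBR2 and SMAD7 below 0, while SMAD3, SMAD4 and SKIL fall on both sides of 0.

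SMAD6 and SMAD7 are known direct targets of SMAD complexes in human cells, which bind GTCTAGAC or the shorter CAGAC. RefSeq promoter windows (250 bases before to 50 after an annotated start, GRCh38.p14) were searched for both on either strand, and windows with a match are shown with it in capitals, for SMAD7 the one of 3 annotated windows that holds most matches, at chr18:48950916-48951215 on the minus strand and for SMAD6 the window at chr15:66701986-66702285 on the plus strand.
SMAD7: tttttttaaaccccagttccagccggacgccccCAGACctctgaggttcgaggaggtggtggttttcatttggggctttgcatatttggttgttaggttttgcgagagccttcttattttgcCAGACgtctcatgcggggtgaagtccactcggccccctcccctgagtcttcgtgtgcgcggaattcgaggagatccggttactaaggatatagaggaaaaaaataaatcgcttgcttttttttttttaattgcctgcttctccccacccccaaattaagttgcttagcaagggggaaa
SMAD6: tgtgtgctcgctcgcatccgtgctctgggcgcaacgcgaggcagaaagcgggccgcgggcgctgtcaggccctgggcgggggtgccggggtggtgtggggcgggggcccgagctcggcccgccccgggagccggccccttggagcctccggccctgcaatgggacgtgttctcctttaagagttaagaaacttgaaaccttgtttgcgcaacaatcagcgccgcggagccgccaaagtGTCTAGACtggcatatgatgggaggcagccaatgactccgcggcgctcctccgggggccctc
The SMAD7 window shown holds 2 copies of CAGAC, the other SMAD7 windows hold 1 and 0, and the SMAD6 window holds 1 GTCTAGAC, starting at base 239. Of all 35116 windows 45.3% hold CAGAC and 0.202% hold GTCTAGAC, and of the 27 windows annotated for the 10 genes 13 hold CAGAC and 1 holds GTCTAGAC. Several genes have more than 1 window, and windows of a gene can overlap. The matches describe letters and not binding, and sequence outside the windows was not searched. SMAD7 was called and SMAD6 was not, with log2 fold changes of −0.28 ± 0.06 and −0.23 ± 0.14. The log2 ratio of SMAD7 to SMAD6 CPM averaged 2.86 ± 0.15 in the mimic group and 2.90 ± 0.17 in the mock group (SD, n = 3 each). This ratio overlapped between the groups.

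To set genes beside each other, CPM was divided by the summed length of their annotated exons in GENCODE release 29, with the caution that exons not used in 293T cells lower the value. TGFB1 had the highest level, 33.2 ± 1.06 CPM per kb in the mimic group and 24.9 ± 0.784 in the mock group (SD, n = 3 each). SMAD7 followed at 15.3 ± 0.498 CPM per kb in the mimic group and 18.7 ± 1.15 in the mock group, and SMAD3 at 13.6 ± 0.699 and, in the mock group, 13.5 ± 0.192 CPM per kb. In the mock group TGFBR2 (9.41 ± 0.341), TGFBR1 (9.25 ± 0.445) and SMAD4 (9.02 ± 0.066) came next, and TGFBR1 overlapped both others. LTBP1 (9.47 ± 0.335 CPM per kb in the mimic group and 7.41 ± 0.611 in the mock group) and SKIL (6.46 ± 0.274 and, in the mock group, 6.47 ± 0.495) followed in the mock order. SMAD2 stood at 2.81 ± 0.075 CPM per kb in the mimic group and 2.98 ± 0.165 in the mock group, a value that rests on its 36366 bases of annotated exon. SMAD6 was lowest, at 1.25 ± 0.105 CPM per kb in the mimic group and 1.48 ± 0.241 in the mock group.

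**Figure D3:**
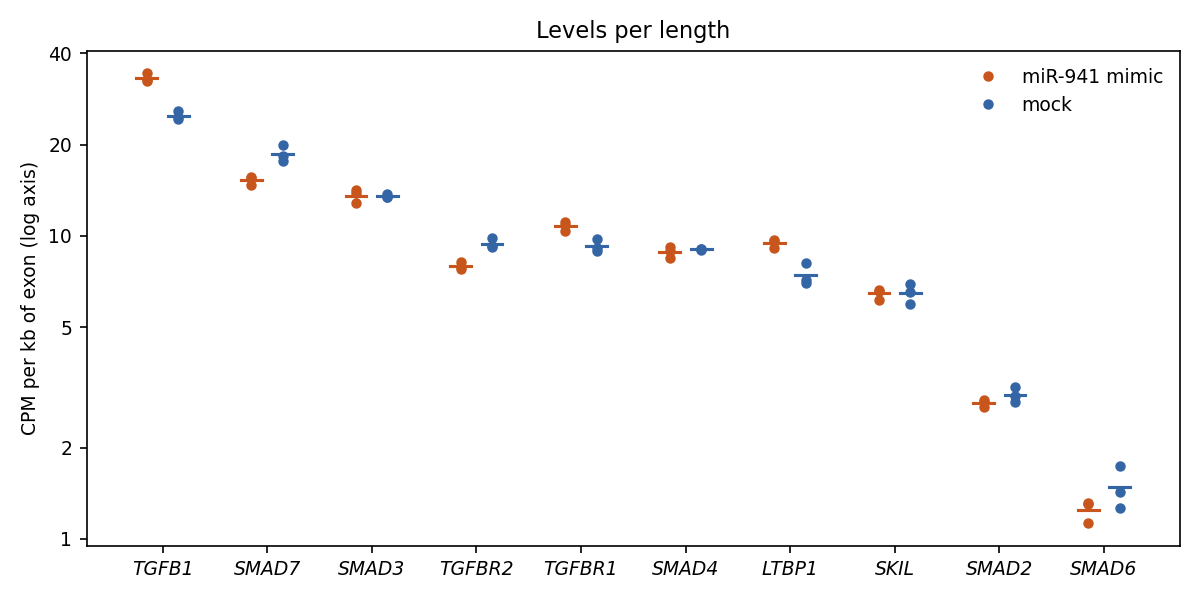
Level of each gene per length (TMM-scaled CPM per kb of annotated exon, log axis), 1 point per library and a line at the mean, with miR-941 mimic left of mock for each gene. The genes are ordered by their mock level, from TGFB1 at 24.9 to SMAD6 at 1.48 CPM per kb.

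TGFB1 had the largest change of the 10. Taking the 12876 other genes that averaged 5 CPM or more, those whose log2 CPM followed that of TGFB1 most closely over the 6 libraries were FAM32A (Pearson r = 0.999), GARNL3 (0.997) and HARS1 (0.996). An r above 0.9 was reached by 665 genes. The libraries fall into 2 groups, so these values are a description and carry no p.

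The rest of the pathway was taken from 4 lists by role, 122 genes of which 105 were tested. Of these 15 rose and 12 fell (25.7% called, beside 13.0% of all tested genes), and the calls are those of the fit over all tested genes. The lists were chosen with earlier results of these data known, so nothing is read from this difference. No list was tested as a set. In each list the named genes are the called ones with the smallest p, at most 4, and other named genes were chosen after their values were seen.

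In the list of ligands, latency proteins and extracellular antagonists 3 of 28 tested genes rose and 2 fell (17.9% called, beside 13.0% of all tested genes), with a median log2 fold change of 0.07. NOG, which encodes the BMP antagonist noggin, rose to 13.3, 13.3 and 8.97 CPM in the mimic libraries, against 7.32, 9.18 and 7.38 CPM in the mock libraries, and mimic replicate 3 lay within the mock range. The BMP ligands BMP2 and BMP4 fell, BMP2 to 22.6 ± 0.233 CPM in the mimic group against 27.9 ± 2.36 CPM in the mock group, and BMP4 to 4.18 ± 0.489 CPM against 6.62 ± 1.99 CPM in the mock group (SD, n = 3 each). The BMP4 groups overlapped, with mimic replicate 3 at 4.56 CPM above mock replicate 2 at 4.45 CPM. ITGAV, the integrin subunit that helps to free latent TGF-beta, changed by 0.16 ± 0.05, in log2 units, and INHA, an inhibin subunit outside the naming rule, by 0.76 ± 0.26. The other latent TGF-beta binding proteins were not called, with LTBP3 at 0.08 ± 0.06, LTBP4 at 0.22 ± 0.09 and LTBP2 at 0.21 ± 0.18, nor were the ligands TGFB2 (0.09 ± 0.14) and TGFB3 (−0.22 ± 0.18). Without overlap, LTBP4 and LTBP2 were higher and TGFB3 lower in the mimic libraries, while the groups of LTBP3 and TGFB2 overlapped. Of all tested genes 14.4% were higher and 13.9% lower without overlap. None of the list was called without mimic replicate 1. DESeq2 called neither ITGAV nor BMP2, and it gave no adjusted p to 13 genes of the list, NOG, BMP4 and INHA among them, so these could not be called by it. An unadjusted p under 0.05 by edgeR was reached by 5 higher and 4 lower genes, beside 13.0% higher and 12.5% lower of all tested genes. The number risen was also 0 without mock replicate 1 and 1 without mock replicate 3, and the number fallen was 0 without mimic replicate 2 and 1 without any 1 of the mock replicates.

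Among receptors and co-receptors none of 13 rose and 2 fell (15.4% called, beside 13.0% of all tested genes). At an unadjusted p under 0.05 by edgeR 1 was higher and 4 were lower, beside 13.0% higher and 12.5% lower of all tested genes. ACVR1B, the type I receptor of activin and nodal, which like TGFBR1 phosphorylates SMAD2 and SMAD3, fell to 47.9, 46.2 and 46.6 CPM in the mimic libraries, against 64.7, 66.5 and 62.8 CPM in the mock libraries. Its groups were apart, the log2 fold change was −0.46 ± 0.07 (edgeR's quasi-likelihood test, Benjamini-Hochberg adjusted p = 6.12e-07), and the call held in all 11 alternative settings. BAMBI, a pseudoreceptor without a kinase that dampens TGF-beta signals, fell to 41.4 ± 2.87 CPM in the mimic group against 49.0 ± 4.94 CPM in the mock group (SD, n = 3 each; adjusted p = 0.0229 by edgeR, and 0.00929 to 0.218 over the alternative settings). BAMBI was not called by DESeq2, under which 0 rose and 1 fell, nor when mimic replicate 1 (log2 fold change −0.19), mock replicate 1 (−0.19) or mock replicate 2 (−0.24) was left out. The type II receptor of BMPs, BMPR2, had a log2 fold change of 0.11 ± 0.05, the activin type II receptor ACVR2B of −0.0035 ± 0.14 and the co-receptor TGFBR3 of 0.06 ± 0.09, and none of these was called. The lowest log2 fold changes of the list, ACVRL1 at −0.79 ± 0.32 and ACVR1C at −0.76 ± 0.28, were not called either. Their groups were apart, at mock means of 2.77 and 3.66 CPM. Of the 13 tested genes 3 had a log2 fold change above 0, beside 7867 of all 15607 tested genes. Those below 0 included BMPR1A (−0.0061 ± 0.099), RGMA (−0.010 ± 0.10) and RGMB (−0.019 ± 0.086), which were not called.

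Among other SMADs and intracellular regulators 4 of 34 rose and 4 fell (23.5% called, beside 13.0% of all tested genes). FKBP1A, the FK506-binding protein that is known to sit on the regulatory segment of type I receptors and to limit signalling without ligand, fell to 60.7 ± 1.38 CPM in the mimic group, against 227 ± 3.23 CPM in the mock group (SD, n = 3 each). KPNB1, a nuclear import receptor, rose by 0.21 ± 0.04 on the log2 scale (adjusted p = 3.92e-04 by edgeR's quasi-likelihood test), and USP11, a deubiquitinase reported to act on the type I receptor, by 0.18 ± 0.05 (adjusted p = 0.00525). PPP1R15A, a phosphatase subunit that SMAD7 can bring to the receptor, stood at 163, 129 and 136 CPM in the mimic libraries, against 125, 121 and 125 CPM in the mock libraries. Its log2 fold change of 0.21 ± 0.06 was 0.09 without mimic replicate 1, where it was not called, and it was not called by DESeq2 (0.20) or without any 1 of the mock replicates (0.19 to 0.21). SKI, the relative of SKIL, was at 0.16 ± 0.05 and the BMP signal carrier SMAD1 at −0.37 ± 0.12, while PPP1CA (−0.15 ± 0.05) and EP300 (−0.15 ± 0.05) were the other fallen genes. The EP300 groups overlapped, its call was lost in 7 of 11 alternative settings, and its log2 fold change was −0.10 without mimic replicate 1 and −0.24 without mimic replicate 3. The calls of PPP1CA and SKI were each lost in 6 of the 11 settings and that of SMAD1 in 5. With DESeq2 2 rose and 1 fell, and with a library left out 2 to 5 rose and 1 to 7 fell. The number risen was 2 without mimic replicate 1 and also 2 without mock replicate 1 or 2. The number fallen was 1 without mimic replicate 1, mimic replicate 2 or mock replicate 2, it was 2 without mock replicate 1 or mock replicate 3, and it was 7 without mimic replicate 3.

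**Figure D4:**
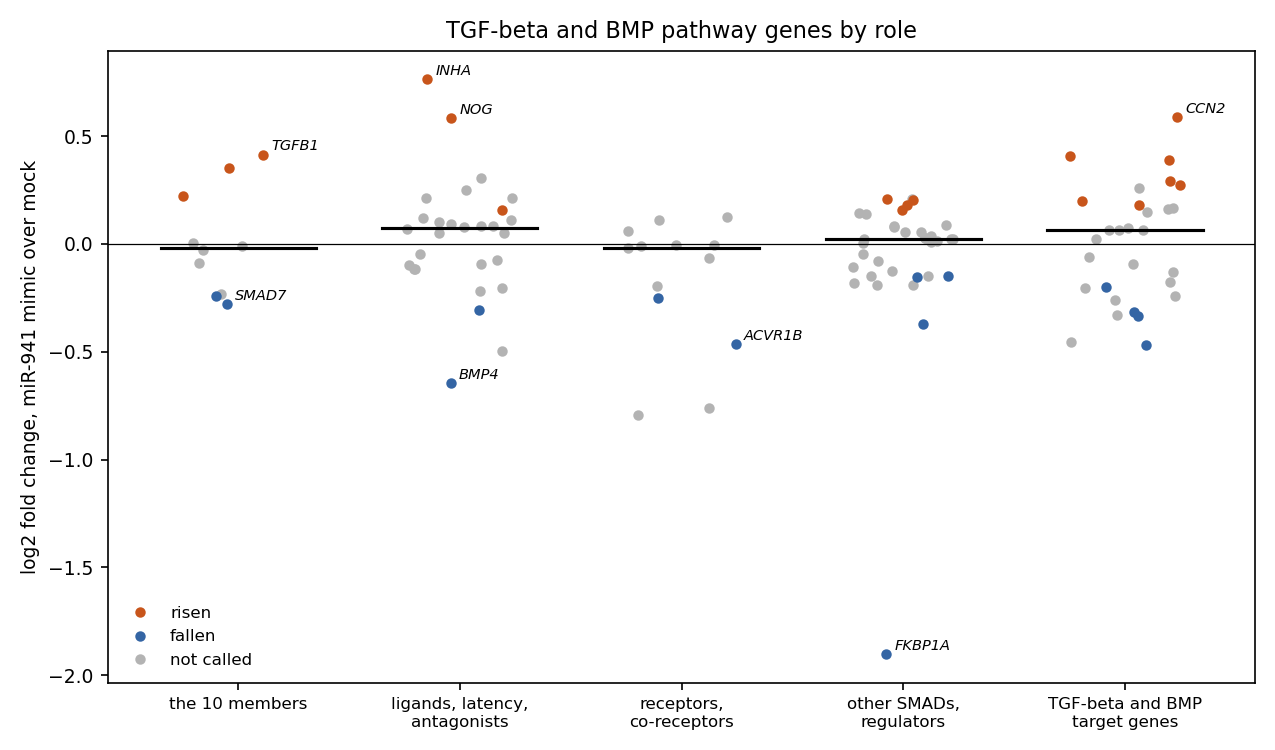
Log2 fold change, miR-941 mimic over mock, of the tested genes among the 10 and the 4 lists by role (1 point per gene, with 1 risen target gene not drawn; points are coloured where called over all tested genes; black lines are medians). The 10 genes lie between −0.28 and 0.41, FKBP1A is lowest at −1.90 and INHA the highest drawn at 0.76.

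Of 30 tested genes known to respond to TGF-beta or BMP, 8 rose and 4 fell, beside 13.0% called among all tested genes. CCN2, a matricellular protein, rose to 193, 179 and 203 CPM in the mimic libraries, against 134, 123 and 125 CPM in the mock libraries. BHLHE40, a transcriptional repressor, rose to 176 ± 12.3 CPM in the mimic group against 133 ± 4.88 CPM in the mock group (SD, n = 3 each). The groups of both were apart, and edgeR gave an adjusted p of 5.31e-14 for CCN2 and 1.49e-08 for BHLHE40. PMEPA1, a membrane protein that restrains SMAD2 and SMAD3, stood at 56.2, 50.01 and 58.4 CPM in the mimic libraries, against 39.5, 41.6 and 44.9 CPM in the mock libraries, with a log2 fold change of 0.39 ± 0.08. Its groups were apart, and the call held in every alternative setting that gave a value. Fibronectin (FN1, 0.20 ± 0.04), the collagen gene COL4A1 (0.18 ± 0.05), KLF10 (0.29 ± 0.07) and ID4 (0.27 ± 0.05) rose as well, and COL4A1 was not called by DESeq2 (0.18) or without mimic replicate 1 (0.15) or mock replicate 2 (0.14).

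The fallen target genes included the cell cycle inhibitors that TGF-beta is known to raise in epithelial cells. CDKN1A fell to 177, 182 and 180.1 CPM in the mimic libraries, against 231, 216 and 233 CPM in the mock libraries. CDKN2B fell to 103 ± 3.36 CPM in the mimic group against 118 ± 4.18 CPM in the mock group, and was not called without mimic replicate 1 or mock replicate 3 (log2 fold change −0.17 in each case, beside −0.20 with all libraries). The actin-binding tropomyosin gene TPM1 fell to 93.5 ± 5.48 CPM in the mimic group against 116 ± 0.13 CPM in the mock group. ID3, a target of the BMP branch, fell to 17.3 ± 1.77 CPM in the mimic group against 23.9 ± 0.998 CPM in the mock group (SD, n = 3 each), while ID1 (−0.45 ± 0.22) and ID2 (−0.13 ± 0.07) were not called. Those that rose and those that fell both include genes that TGF-beta is known to induce, and the median log2 fold change of the list was 0.06.

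**Figure D5:**
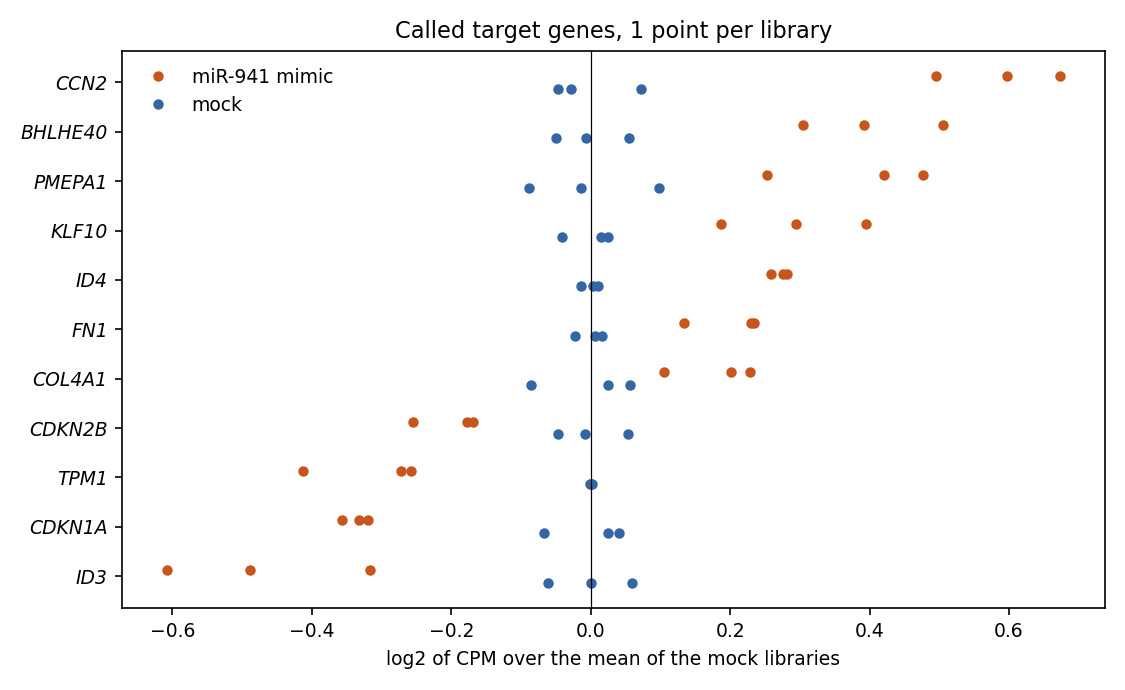
Called target genes (11 of 12), each library as the log2 of its CPM over the mean of the mock libraries (miR-941 mimic points above mock points for each gene). In all 11, drawn because they were called in these libraries, the groups are apart, with 7 genes higher and 4 lower in the mimic libraries. Of the 30 tested target genes 10 were higher and 5 lower without overlap, beside 14.4% and 13.9% of all tested genes.

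The seed site occurs in 6 tested genes of the 4 lists, GREM1, FSTL3, BMPR2, SMURF1, PMEPA1 and LIF. None of them fell, with GREM1 at 0.08 ± 0.20, FSTL3 at 0.10 ± 0.17, BMPR2 at 0.11 ± 0.05, SMURF1 at 0.02 ± 0.08 and LIF at 0.26 ± 0.21, and 1 rose, PMEPA1. The PMEPA1 site lies at chr20:57648892-57648898 on the minus strand of GRCh38, in exon 4 of 4, at base 3155 of the 3661 bases of the 3′ UTR, and is not followed by an A.
PMEPA1: gggggagaGCCGGGTtcattccc
Of all 634 tested genes with a site in this annotation 80 fell and 40 rose. Of all 15607 tested genes 966 fell (6.19%) and 1061 rose (6.80%). None of the 10 genes or of the list genes with a site was among those that fell. Only SMAD2 and the 6 list genes had a site, too few to read anything from this. FKBP1A had no match in its longest annotated 3′ UTR. Coding sequences were not searched, and whether the mimic acts directly on any of these genes was not tested.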

How the data were processed

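RNA-seq was made from rRNA-depleted RNA and read over 100 bases from 1 end, per the labels' protocols. The deposited values are raw counts per Ensembl gene, 1 table per library, and genes absent from a table were taken as 0. STAR, edgeR and hg19 are named, without roles, in the submitters' processing notes; versions, counting program, annotation and strand were not given in the sources used here. Samples were grouped by title. Counts were filtered with filterByExpr (15607 genes kept, 99.7% of counts), scaled with TMM and tested with edgeR 4.0.16 (R 4.3.3; quasi-likelihood, robust, group only, two-sided). Errors of log2 fold changes are SEs derived from the test statistic. Alternatives were DESeq2 1.42.0, RLE factors, no filter, a filter at a mean of 5 CPM, a replicate block and leaving out each library. The fit was tested on simulated counts. Libraries of a group differed by 1.27 to 2.38 times the sampling variation, so each counts as 1 replicate. The floor of 3 counts covers counting error only; SDs and SEs include the spread between libraries.

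The 10 genes and the lists were chosen with earlier results of these data known. Named genes are the 10, FKBP1A and, per list, the called genes with the smallest p, at most 4. Seed sites and exon lengths come from GENCODE release 29 (GRCh38), a build other than hg19, so coordinates refer to sequence matches made here. Of the target genes, 1 counted as risen is not reported here by name.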

Additional observations from a re-analysis of the deposited data

How the results depend on the processing

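Over all genes, DESeq2 called 513 risen and 505 fallen genes, against 1061 and 966 by edgeR, and gave no adjusted p to 4539 genes. With a library left out, 689 to 1080 rose (689 without mock replicate 1) and 613 to 981 fell (613 without mock replicate 1, 631 without mock replicate 3). Of the 10 genes, 2 to 3 rose and 1 to 2 fell with a library left out, and 1 fell with DESeq2. In the ligand list 0 to 3 rose and 0 to 2 fell with a library left out, and with DESeq2 0 and 0, which gave no adjusted p to 3 of the 5 called genes; at an unadjusted p under 0.05 edgeR gave 5 and 4, beside 13.0% higher and 12.5% lower of all tested genes. Among receptors 1 to 2 fell and 0 rose with a library left out, and 1 fell with DESeq2. Among regulators 2 to 5 rose and 1 to 7 fell with a library left out, and 2 and 1 with DESeq2. Among target genes 7 to 8 rose and 3 to 4 fell with a library left out. A 6mer site, bases 2 to 7, is present in 2 of the 10 genes (SMAD2 and SMAD4) in place of 1. The sign of SMAD3 turned without a filter on low counts (−0.0019) and over left-out libraries (−0.026 to 0.046), and that of SMAD4 (−0.060 to 0.0065) and SKIL (−0.060 to 0.046) over left-out libraries; none was called in any setting. LTBP1, TGFB1 and SMAD7 were called in all 11 settings.

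Same-numbered libraries deviated from their group means with correlations of 0.044, −0.051 and −0.017, so the numbers were not taken as pairs. With the replicate block 965 genes rose and 854 fell, 3 and 2 of the 10 genes among them, and INHA and PPP1CA were no longer called. Not every library correlated best with its own number.

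At 69 to 91 counts per library SMAD6 has the largest SE of the 10, 0.14 on the log2 scale, and whether it shares the change of SMAD7 was not detectable at this depth. The adjusted p-values set the difference between the groups against the spread between transfections of 1 line. That spread was uneven in the mimic group. Mimic replicate 3 differed from mimic replicates 1 and 2 by 2.05 and 2.38 times the sampling variation, against 1.27 between mimic replicates 1 and 2.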
